A study of Arabidopsis thaliana with 8 samples.

Results

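The windows described here lie around the 5 centromeres of Arabidopsis thaliana. They were chosen by position alone: a window counted when its centre fell on chromosome 1 at 13.6 to 16.6 Mb, chromosome 2 at 2.1 to 5.1 Mb, chromosome 3 at 12.2 to 15.2 Mb, chromosome 4 at 2.5 to 5.5 Mb or chromosome 5 at 10.2 to 13.2 Mb, in TAIR10 coordinates. These intervals of 3 Mb each, 15 Mb in all, held 6507 of the 116684 windows in the 7 lists of the series. After windows of all lists that overlap by 1 bp or more were merged, they held 2156 of 39850 regions. The other 110177 windows lay on the remaining 104 Mb of the chromosomes, called the arms here.

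The series used ampDAP-seq on 7 tagged ALOG proteins, and each list belongs to 1 of them: LSH1, LSH2 or LSH3 of Arabidopsis, TMF of tomato, G1 of rice, or LOS1 or LOS2 of the liverwort Marchantia, with the species given as background. All proteins were synthesised in vitro in a cell-free system and exposed to fragments of DNA from Arabidopsis seedlings of 2 weeks, so the target genome was the same for all, whatever species a protein comes from. The input was not used here. According to the series' description, a list keeps the peaks found in each of 3 replicates, so every protein has 1 list and no spread between replicates can be given. Every window is 200 bp wide and carries no score or read count, and the read depth is unknown. Intervals given below are 95% Wilson intervals, which cover counting error only.

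ALOG proteins are plant-specific DNA-binding transcription factors that act in flower, inflorescence and organ boundary development. Centromeres of Arabidopsis are built of satellite repeats, most of which the TAIR10 assembly leaves out, and are flanked by pericentromeric heterochromatin, which is rich in transposons and their remnants and poor in genes. In the living plant that DNA is densely methylated and packed in nucleosomes. In ampDAP-seq, a protein made in vitro is offered genomic fragments that were amplified beforehand and so carry neither methylation nor nucleosomes. A window around a centromere therefore records retention of bare sequence by the protein in vitro, not occupancy in the plant.

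The gene table agreed in content with the label of the intervals. Bodies of protein-coding genes covered 9.54% of the intervals and 60.5% of the arms, and the intervals held 772 protein-coding genes, 51.5 per Mb against 256 per Mb in the arms. Models that the table classes as pseudogenes, counted where they lie outside protein-coding genes, covered 37.3% of the intervals and 4.56% of the arms. Of the 3492 gene models of any class in the intervals, 2415 were pseudogenes, nearly as many as the 2428 of the arms with their 34407 models.

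All 7 proteins had windows around the centromeres, at a much lower density than in the arms. LSH1 had 775 windows in the intervals, or 51.7 per Mb, against 125 per Mb in its arms. For LSH2 there were 1168 windows (77.9 per Mb against 195), and for LSH3 883 (58.9 against 157). G1, the shortest list, had 433 windows, or 28.9 per Mb against 62.1. LOS1 had 819 (54.6 against 127), LOS2, the longest list, 1619 (108 against 268), and TMF 810 (54.0 against 123). No list approached its own arms, and the ratio of the densities ran only from 0.374 for LSH3 to 0.465 for G1. Densities here and below divide by the full length of the sequence, with no allowance for assembly gaps or for repeats where reads cannot be placed uniquely. The part this plays in the lower density was not tested.

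Expressed as a log2 ratio of interval to arms, the mean over lists was -1.26 ± 0.10 (SD, n = 7), a 2.40-fold lower density, and it was negative in 7 of 7 lists (exact two-sided sign-flip permutation p = 0.0156, adjusted 0.0219 over 7 tests). This p is the smallest that 7 lists can give. The lists were made from the same DNA and share many regions, so the 7 ratios are not independent.

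Relative to list length, the proteins differed little. G1 had 6.27% of its windows in the intervals (5.73 to 6.87%), TMF 5.93% (5.54 to 6.34%), LOS1 5.83% (5.45 to 6.23%), LSH1 5.63% (5.26 to 6.03%), LOS2 5.48% (5.22 to 5.74%), LSH2 5.44% (5.14 to 5.75%) and LSH3 5.11% (4.80 to 5.45%). Neighbours in this order overlapped in their counting intervals, and that of LSH3, the lowest, lay apart from those of TMF and G1, the highest. The 3 LSH lists averaged 5.39% and the other 4 lists 5.88%, and this difference of -0.482 percentage points did not pass 0.05 (exact two-sided permutation p = 0.0857 over 35 assignments, adjusted 0.1, smallest possible p 0.0286).

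Chromosomes 1 and 5 had the sparsest intervals and chromosome 2 the densest. Merged regions numbered 357 on chromosome 1, 513 on chromosome 2, 468 on chromosome 3, 463 on chromosome 4 and 355 on chromosome 5. Against the arms of the same chromosome, the ratio of window densities over the 7 lists was 0.298 to 0.403 on chromosome 1, 0.464 to 0.544 on chromosome 2, 0.414 to 0.576 on chromosome 3, 0.404 to 0.453 on chromosome 4 and 0.293 to 0.398 on chromosome 5. The ranges of chromosomes 1 and 5 did not overlap those of the other chromosomes. Protein-coding genes covered 8.12% of the interval on chromosome 1, 14.0% on chromosome 2, 6.74% on chromosome 3, 11.6% on chromosome 4 and 7.24% on chromosome 5, so chromosome 3 had the lowest gene coverage but not the fewest regions. The high end of the range on chromosome 3 belonged to G1, with 106 windows there against 74 on chromosome 1, 93 on chromosome 2, 82 on chromosome 4 and 78 on chromosome 5.

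Density climbed outward from the middles to the edges of the intervals in all 7 lists, in steps of 0.5 Mb. In the innermost 0.5 Mb on each side, the lists reached 0.238 to 0.295 of their arm density. At 0.5 to 1 Mb the ratio was 0.369 to 0.518, and at 1 to 1.5 Mb it was 0.516 to 0.628. Beyond the edge of the intervals it went on to 0.570 to 0.658 at 1.5 to 2 Mb, to 0.635 to 0.763 at 2 to 2.5 Mb and to 0.732 to 0.828 at 2.5 to 3 Mb. Over this last step G1 did not climb, with 47.4 and 46.6 windows per Mb, while the other 6 lists did. The share of sequence in protein-coding genes was 6.21% in the innermost zone, 7.26% in the next, 15.2% at 1 to 1.5 Mb and 46.3% at 2.5 to 3 Mb. Between the innermost zone and the one beside it LSH1 went from 33.2 to 50.4 windows per Mb, G1 from 15.4 to 32.2 and LOS2 from 67.8 to 110.4. Gene coverage of the 2 zones was close, at 6.21% and 7.26%. The innermost zone, however, includes a window-free stretch of 278 kb on chromosome 2 with 40.6% of its sequence in protein-coding genes. Coverage in the rest of that zone was therefore lower than 6.21%.

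**Figure D1:**
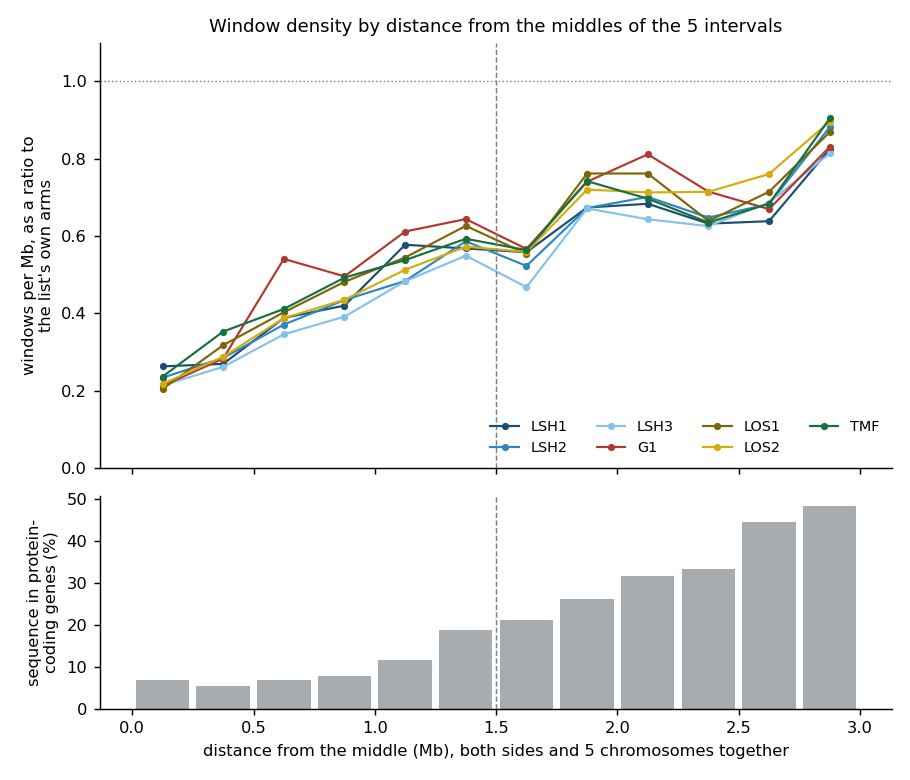
Upper panel: windows per Mb of each of the 7 lists, as a ratio to the density in the same list's arms, in steps of 0.25 Mb of distance from the middles of the intervals; both sides and all 5 chromosomes are pooled, and the dashed line marks the edge of the intervals at 1.5 Mb. Lower panel: percent of the sequence in protein-coding genes in the same steps. The 7 lines lie close together and climb outward with small dips, one of them in every list at 1.5 to 1.75 Mb, and none reaches the arm level of 1 within 3 Mb.

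The regions were spread unevenly within the intervals. In bins of 100 kb the 150 bins of the intervals held a median of 14 merged regions, with 0 to 34 per bin, against a median of 37 in the arms. None of the 150 bins reached that arm median. The richest bin of each interval held 30 regions on chromosome 1 (16400001 to 16500000), 34 on chromosome 2 (3100001 to 3200000), 31 on chromosome 3 (14700001 to 14800000), 34 on chromosome 4 (5400001 to 5500000) and 32 on chromosome 5 (10200001 to 10300000). On chromosomes 4 and 5 these bins touched the edge of the interval. The bin of chromosome 2 lay 0.45 Mb from the middle, in sequence with only 6.05% in protein-coding genes, and held 98 windows from all 7 lists but no region common to all of them.

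**Figure D2:**
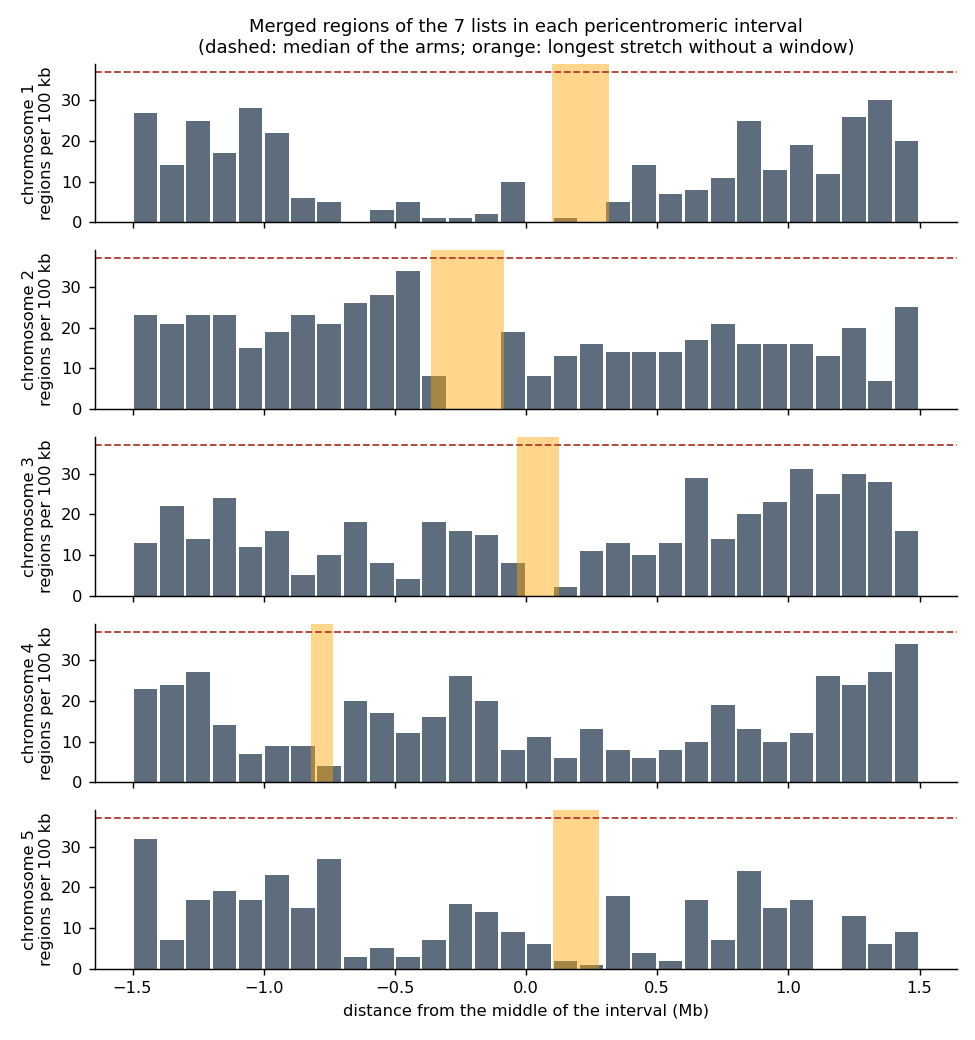
Merged regions of the 7 lists per 100 kb against distance from the middle of each interval, in Mb, for chromosomes 1 to 5. The dashed line is the arm median of 37 regions per 100 kb, which no bar reaches, and the orange band is the longest stretch without a window of any list in each interval.

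Long stretches had no window of any protein. Window-free stretches of 100 kb or more numbered 8 in the intervals, 9.68% of their length, and 1 in the arms. Those of 20 kb or more made up 43.1% of the intervals and 3.61% of the arms. The longest per chromosome were 215 kb on chromosome 1 (15200294 to 15415069), 278 kb on chromosome 2 (3236204 to 3514672), 163 kb on chromosome 3 (13664384 to 13827382), 86.0 kb on chromosome 4 (3179028 to 3264991) and 174 kb on chromosome 5 (11803007 to 11977204). Those of chromosomes 3, 4 and 5 held no protein-coding gene, and that of chromosome 1 held 1.

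The stretch on chromosome 2 was of another kind. It held 94 protein-coding genes, 12.2% of all those in the intervals, and 40.6% of its sequence was in protein-coding genes. Like the others it was picked for having no window of any list, so only its gene content is an observation. Both sides were well supplied: the 100 kb to its left held 89 windows of all 7 lists and the 100 kb to its right 52, also of all 7 lists, with 2 regions common to all lists on each side. As background, the centromere of chromosome 2 is known to be flanked by a large insertion of mitochondrial DNA, whose sequence also occurs in the mitochondrial genome. How reads with several matching positions were treated is not given in the sources used here, and the part this plays in the empty stretch was not tested. MCM5, a subunit of the replicative helicase, lies near the right edge, outside the stretch, and carries 3 regions, all of LOS2 alone, from 3523914 to 3526427.

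Most windows around the centromeres lay outside protein-coding genes, although genes were still the most densely covered sequence there. The share with its centre in a protein-coding gene was 26.8% for G1 (22.8 to 31.2%), against 81.6% in its arms. It was 23.9% for LSH1 (21.0 to 27.0%; arms 80.7%), 23.4% for LSH3 (20.8 to 26.3%; arms 78.0%), 22.6% for LOS1 (19.9 to 25.6%; arms 72.4%), 22.1% for TMF (19.4 to 25.1%; arms 75.5%), 21.7% for LSH2 (19.4 to 24.1%; arms 71.0%) and 19.5% for LOS2 (17.7 to 21.5%; arms 68.9%). The difference, interval minus arms, averaged -52.6 ± 3.06 percentage points (SD, n = 7) and was negative in 7 of 7 lists (exact two-sided sign-flip permutation p = 0.0156, adjusted 0.0219). Protein-coding genes cover 9.54% of the intervals and 60.5% of the arms, so windows placed without regard to genes would also give a large negative difference. The test against 0 therefore cannot tell a property of the proteins from gene coverage. With genes of every class counted, pseudogene models included, the difference was -18.8 percentage points.

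Around the centromeres the share in genes was 2.05 times (LOS2) to 2.81 times (G1) the share of the sequence that they cover, against 1.14 times (LOS2) to 1.35 times (G1) in the arms. The ceiling of this measure falls as coverage rises. With genes covering 60.5% of the arms and 9.54% of the intervals, the arms could not reach the interval values, so the 2 ranges are not comparable. Per Mb of protein-coding gene body, the density in the intervals was 0.714 (LSH3) to 0.969 (G1) of that in the arms. The mean log2 ratio was -0.32 ± 0.15 (SD, n = 7), negative in 7 of 7 lists (exact two-sided sign-flip permutation p = 0.0156, adjusted 0.0219). Without the empty stretch on chromosome 2 it was -0.21, and G1 then stood at 1.05 times its arms. In sequence outside protein-coding genes the ratio was lower, from 0.454 for LOS2 and 0.470 for LSH2 to 0.714 for LSH1 and 0.805 for G1, with a mean log2 ratio of -0.78 ± 0.30 (SD, n = 7; exact two-sided sign-flip permutation p = 0.0156, adjusted 0.0219).

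The excess of windows per Mb of gene over windows per Mb outside genes was larger around the centromeres. It was 3.47-fold for G1 (2.89-fold in the arms), 2.97-fold for LSH1 (2.73-fold), 2.90-fold for LSH3 (2.32-fold), 2.77-fold for LOS1 (1.71-fold), 2.69-fold for TMF (2.01-fold), 2.62-fold for LSH2 (1.59-fold) and 2.30-fold for LOS2 (1.44-fold). The order of the proteins changed little, with G1 and LSH1 at the top and LOS2 at the bottom in both compartments. The difference in log2 excess was 0.46 ± 0.24 (SD, n = 7), positive in 7 of 7 lists (exact two-sided sign-flip permutation p = 0.0156, adjusted 0.0219). It turned to -0.24 when genes of every class were counted, which by construction adds the pseudogene models to the genic side.

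Pseudogene models took up a large part of the windows around the centromeres. They held 39.4% of the LSH1 windows there, 33.4% of those of LSH2, 37.0% for LSH3, 42.0% for G1, 35.7% for LOS1, 34.2% for LOS2 and 37.9% for TMF. These values lie on both sides of the 37.3% of the sequence that the models cover. In the arms the same class held only 2.48% (LSH2) to 4.13% (G1) of the windows, below its 4.56% of the sequence in every list. Per Mb of pseudogene model, LOS2 had 98.9 windows in the intervals against 148 in the arms and G1 32.5 against 56.2, and over the 7 lists the ratio was 0.573 to 0.713.

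Of the 3 exclusive classes (protein-coding gene, pseudogene model and neither), sequence in neither showed the widest relative spread between the proteins. G1 kept 0.666 of its arm density there and LSH1 0.631, followed by TMF with 0.532, LSH3 with 0.511, LOS1 with 0.473, LSH2 with 0.444 and LOS2 with 0.428. In absolute terms LOS2 still had the most windows in this sequence, 94.0 per Mb against 35.8 for LSH1 and 16.9 for G1. The arms of LOS2 held 220 per Mb of it, those of LSH2 148 and those of LSH1 56.6.

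**Figure D3:**
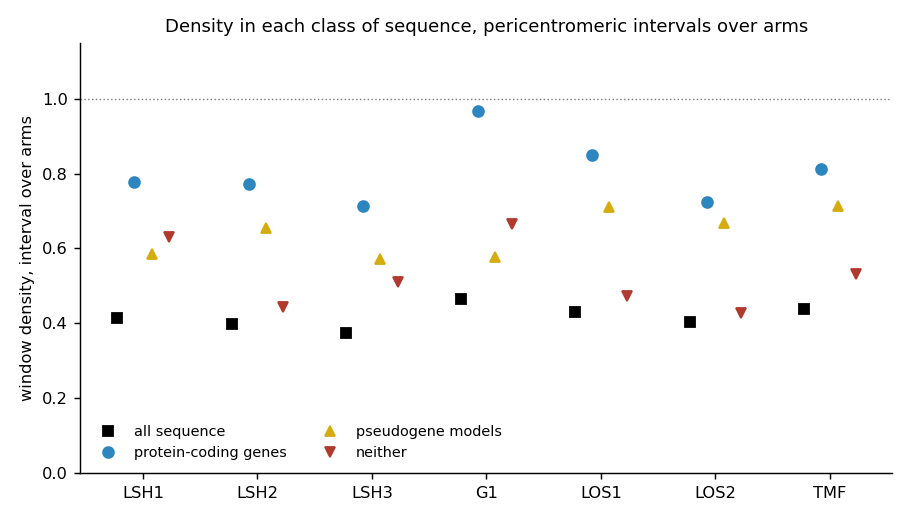
Window density in the pericentromeric intervals divided by that in the arms, for each of the 7 lists, over all sequence and within protein-coding genes, pseudogene models and sequence in neither class. Each point is 1 list, without replicates; protein-coding genes lie highest in every list, from 0.714 to 0.969, and the value over all sequence lies lowest.

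Windows outside genes lay far from them around the centromeres. The median distance from a window outside protein-coding genes to the nearest such gene was 7623 bp (LOS1) to 8658 bp (TMF) in the intervals and 734 bp (LSH2) to 902 bp (G1) in the arms. Only 5.99% (G1) to 10.9% (LOS2) of these windows lay within 1000 bp of a gene, against 52.9% to 59.8% in the arms. Windows of 1 list were also farther from each other, with a median distance to the nearest window of the same list of 1604 bp for LOS2 and 6353 bp for G1, against 1104 bp and 4658 bp in the arms. Close neighbours were nonetheless frequent: 36.4% of LOS2 windows and 29.0% of LSH1 windows in the intervals had another window of their list within 1 kb, against 46.6% and 28.0% in the arms.

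Of the 772 protein-coding genes in the intervals, 269 (34.8%, 31.6 to 38.3%) had at least 1 region of any protein centred in the gene body. Without the genes of the empty stretch on chromosome 2 it was 269 of 678 (39.7%, 36.1 to 43.4%). Over all chromosomes 54.9% of protein-coding genes had one, and in the arms 55.4%. The genes of the intervals were shorter, with a median of 1438 bp, or 1591.5 bp without the chromosome 2 stretch, against 2088 bp. Within length classes the share was 12.5% of genes up to 1000 bp (arms 17.7%), 30.7% of those of 1000 to 2000 bp (arms 41.3%), 50% of those of 2000 to 3000 bp (arms 65.4%) and 69.0% of longer ones (arms 84.7%). A region of all 7 lists lay in 46 genes, 5.96% (4.50 to 7.86%), close to the 7.75% over all chromosomes. Without the chromosome 2 stretch this share was 6.78% (5.12 to 8.93%). By protein, LOS2 marked 201 genes of the intervals (26.0%, arms 43.6%), LSH2 180 (23.3%, arms 36.5%), LSH3 148 (19.2%, arms 32.9%) and LOS1 142 (18.4%, arms 27.2%). LSH1 and TMF marked 137 each (17.7%, arms 29.6% and 27.5%), and G1, the shortest list, 103 (13.3%, arms 16.8%). Each list thus marked a smaller share of the genes than in the arms. The length classes and the shares by protein include the genes of the chromosome 2 stretch.

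Of these 46 genes, 3 held 2 regions common to all 7 lists. In CUE1 (AT5G33320), the phosphoenolpyruvate/phosphate translocator of the plastid envelope, both regions of the gene were common to all proteins, on chromosome 5 at 12589291 to 12589521 and 12589761 to 12590056. AT1G43580 had them side by side on chromosome 1 at 16410650 to 16410879 and 16410884 to 16411106, and 1 more region of LSH1, LSH2, LSH3 and G1. MAK10 (AT2G11000), a homologue of a yeast N-terminal acetyltransferase subunit, had 6 regions on chromosome 2, of which those at 4342450 to 4342800 and 4347115 to 4347341 were common to all and 3 belonged to LOS2 alone. The next 7 genes by the naming rule held 1 such region each: AT1G43010, AT4G08395, AT2G07215, AT1G36240, AT3G32040, AT2G07310 and AT4G05590. AT1G36240 also had a region of LOS2 alone and AT4G08395 one of LSH1 and G1. The gene table gives neither strand nor exons, so exons, introns and untranslated parts were not told apart.

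The genes with the most regions per interval showed how mixed the combinations can be within 1 gene. AT3G33530 on chromosome 3 held 8 regions, the highest number among the genes named here: 1 common to all lists at 14093235 to 14093472, 2 of LOS2 alone, 1 of LSH3 alone and 4 of other combinations. CAS1 (AT2G07050), cycloartenol synthase, the entry enzyme of plant sterol synthesis, held 6 regions between 2925887 and 2928165 on chromosome 2. LSH2, LSH3 and LOS2 were present in 5 of them, and 1 at 2926932 to 2927214 was common to all. ACO3 (AT2G05710), an aconitase, also held 6, among them 2 of LSH1 alone and 2 of LOS2 alone, and none common to all lists. AT3G42850 held 6 as well.

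GSL1 (AT4G04970), a callose synthase, had 5 regions on chromosome 4, including the one common to all lists at 2541063 to 2541283 and 1 of LOS1 alone at 2539993 to 2540192. SFR6 (AT4G04920), a subunit of the Mediator complex, had 5 regions, of which the first 2 lie just outside the interval. PTB3 (AT1G43190), a polypyrimidine tract-binding protein, and UGT80B1 (AT1G43620), a sterol glucosyltransferase, had 4 each on chromosome 1. On chromosome 5 no gene exceeded 3, with AT5G28500 and AT5G32450 named by the rule. In AT5G28500 all 3 regions held G1 and 2 held LSH1 besides, without any LOS1, LOS2 or TMF window.

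Genes with regions of a single list also occurred. YY1 (AT4G06634), a zinc-finger transcription factor, had 2 regions of LSH1 alone on chromosome 4, at 3764473 to 3764672 and 3765481 to 3765680, on both sides of 1 of LSH1 and LSH3. AT2G07505 had 2 regions, both of G1 alone. PAA2 (AT2G05840), a proteasome subunit, had 1 of LSH3 alone, AT5G33355 had 1 of LSH2 alone, and PCN (AT4G07410), a WD-repeat protein needed in the embryo, had 1 of TMF alone among 3.

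Some common regions lay close to the middles. The region of all 7 lists nearest to the middle was on chromosome 2 at 3596089 to 3596303, only 3.80 kb from it and outside any gene of the table. On chromosome 4 it lay 71.8 kb away at 4071722 to 4071946, in the protein-coding gene AT4G06744, and on chromosome 5 77.5 kb away at 11622434 to 11622648, in the pseudogene AT5G29646. On chromosome 1 it lay 91.9 kb away at 15008027 to 15008233, in the pseudogene AT1G40091. On chromosome 3 it was the most distant, at 208 kb, at 13491642 to 13491853 in the protein-coding gene AT3G32940.

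The number of lists per region ran close to that in the arms. Of the 2156 regions, 193 (8.95%, 7.82 to 10.2%) were held by all 7 lists, against 7.78% (7.51 to 8.06%) in the arms and 7.84% over all chromosomes. Regions of a single list made up 39.1% (37.0 to 41.1%), against 40.5% (40.0 to 41.0%). Only the class of exactly 5 lists had intervals that did not overlap, with 11.4% (10.1 to 12.8%) against 9.57% (9.27 to 9.87%). Regions common to all lists were found on every chromosome, from 30 on chromosome 5 to 43 on chromosome 2, or 8.38% to 10.1% of the regions of an interval. Overlapping windows of different lists were as closely centred as elsewhere, with a median offset of 9 bp and 77.6% within 20 bp, against 8 bp and 78.8% in the arms.

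**Figure D4:**
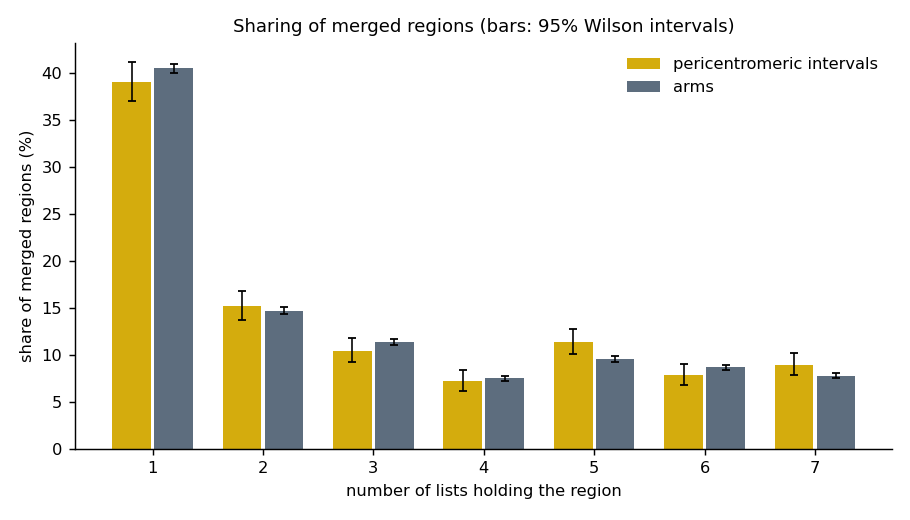
Share of merged regions, in percent, by the number of lists that hold them, in the pericentromeric intervals (2156 regions) and the arms (37694 regions). Bars carry 95% Wilson intervals; the profiles run close together, from 39.1% and 40.5% in 1 list to 8.95% and 7.78% in all 7.

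List by list, the share of pericentromeric windows that overlapped a window of another protein was 99.4% for LOS1, 99.0% for TMF, 97.5% for LSH3, 95.3% for LSH2, 88.5% for G1, 84.9% for LSH1 and 63.7% for LOS2. In the arms the shares in the same order were 99.2%, 99.4%, 96.5%, 93.7%, 89.3%, 85.5% and 61.4%. The difference, interval minus arms, averaged 0.447 ± 1.19 percentage points (SD, n = 7), was positive in 4 of 7 lists and did not pass 0.05 (exact two-sided sign-flip permutation p = 0.359, adjusted 0.359). Without chromosome 3 the mean was 0.861 with p = 0.0469 by the same exact test.

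This average covers opposite movements outside protein-coding genes. There, 14.9% of LSH1 windows in the intervals were found in no other list, against 8.56% in the arms, so that 85.1% (82.0 to 87.7%) and 91.4% (90.3 to 92.5%) were shared. LSH2 went the other way, with 4.59% of its windows alone in the intervals and 9.08% in the arms, and so did LOS2 with 36.8% against 41.5%. Overlapping windows count in both lists, over lists of different size, so these movements are not independent. Outside protein-coding genes LSH1 kept 0.714 of its arm density, LSH2 0.470 and LOS2 0.454. The part this plays in the movements was not tested. Inside protein-coding genes the shares alone were close: 15.7% and 16.0% for LSH1, 5.14% and 5.18% for LSH2, and 34.5% and 37.2% for LOS2.

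The contrast was located in sequence that is neither protein-coding gene nor pseudogene model. In that sequence 15.4% of the LSH1 windows of the intervals (11.7 to 20.1%) were alone, against 6.85% in the arms (5.84 to 8.02%), while in pseudogene models the values were 14.4% and 16.5%. As merged regions, LSH1 alone accounted for 43 of 917 regions in this class around the centromeres (4.69%, 3.50 to 6.26%) and for 140 of 9301 in the arms (1.51%, 1.28 to 1.77%). LSH2 alone accounted for 24 of the 917 (2.62%, 1.76 to 3.86%) and for 505 of the 9301 (5.43%, 4.99 to 5.91%).

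The same contrast was present far from genes. Beyond 1 kb of any protein-coding gene, 39 of 242 LSH1 windows in the intervals were alone (16.1%, 12.0 to 21.3%) and 62 of 763 in the arms (8.13%, 6.39 to 10.3%). For LSH2 the values beyond 1 kb were 4.36% (2.81 to 6.71%) and 9.68% (8.45 to 11.1%), and for LOS2 36.0% (32.3 to 39.8%) and 42.9% (41.1 to 44.6%). Within 1 kb of a gene the intervals held only 43 windows of LSH1, of which 5 were alone. These splits were chosen after the values were seen and carry no test.

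**Figure D5:**
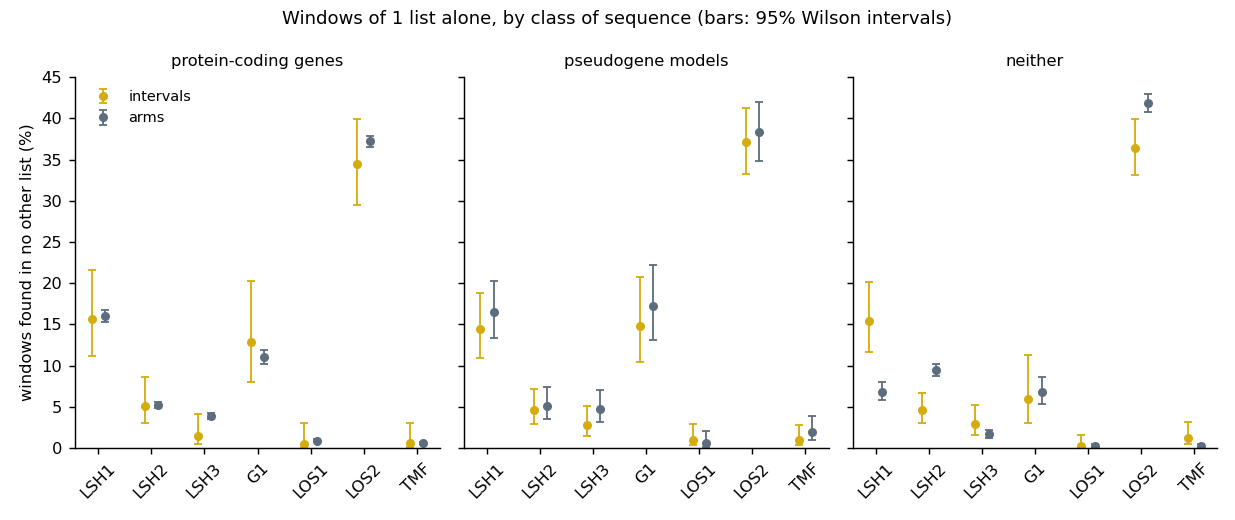
Percent of each list's windows that overlap no window of another list, in the pericentromeric intervals and in the arms, for windows in protein-coding genes, in pseudogene models and in neither. Bars are 95% Wilson intervals. In the first 2 classes the bars of the compartments overlap for every list; outside both classes LSH1 is higher in the intervals and LSH2 and LOS2 are lower there.

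Pair by pair, the LSH1 windows outside genes had fewer partners around the centromeres in 5 of the 6 other lists. LSH2 windows overlapped 71.5% of them in the intervals (67.8 to 75.0%) and 84.9% in the arms (83.4 to 86.2%), LSH3 65.9% against 78.4%, LOS1 52.9% against 65.2%, LOS2 53.2% against 67.8% and TMF 60.3% against 67.4%. G1 was the exception, at 43.1% (39.1 to 47.1%) against 40.0% (38.1 to 42.0%). Such losses were not particular to LSH1. G1 windows outside genes had fewer partners in every other list, among them LSH2 (69.1% against 79.8%) and LOS2 (59.0% against 70.7%). TMF windows had fewer in LSH2 (86.1% against 94.4%), LSH3, LOS1 and LOS2, and more in LSH1 and G1. LSH3 and LOS1 windows moved both ways, and LSH2 and LOS2 windows had more partners in every other list. Some of these directions lay within counting error. LSH2 windows with LOS2 stood at 78.6% (75.8 to 81.1%) against 78.1% (77.0 to 79.1%). G1 windows with TMF stood at 69.4% (64.1 to 74.2%) against 72.3% (69.7 to 74.8%). A fall in 1 list and a rise in its partner can also rest on the same overlapping windows. In protein-coding genes the shares of LSH1 windows with a partner in LOS1 were 48.1% and 47.3%, and in LOS2 48.1% and 49.3%. Those with a partner in G1 were 48.1% (41.0 to 55.3%) in the intervals and 39.6% (38.7 to 40.5%) in the arms.

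Over all windows, 24 of the 42 ordered pairs of lists overlapped more in the intervals than in the arms and 18 less, and the counting intervals were apart in 8 and 3 of them. The pairs with the largest gain were those of LSH3 windows with TMF, 76.1% (73.2 to 78.8%) against 67.1% (66.4 to 67.8%), and with LOS1, 70.2% (67.1 to 73.1%) against 62.1% (61.3 to 62.8%). From the other side there was no gain. TMF windows with LSH3 stood at 81.2% (78.4 to 83.8%) against 84.3% (83.7 to 84.9%). LOS1 windows with LSH3 stood at 74.1% (71.0 to 77.0%) against 76.0% (75.2 to 76.7%). For LSH3 windows with LOS1 the gain was present in protein-coding genes, with 72.9% against 59.6%, but not outside them, with 69.4% against 70.6%. LSH3 windows with TMF stood at 72.5% against 65.2% in genes and at 77.2% against 74.0% outside.

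The Jaccard index, the bases shared by a pair of lists over the bases covered by either, was highest for LOS1 and TMF around the centromeres (0.631) as in the arms (0.625), and lowest for G1 and LOS2 (0.110 and 0.105). LSH3 and TMF came next in the intervals at 0.569, ahead of LSH2 and LSH3 at 0.526. In the arms the order was reversed, with LSH2 and LSH3 at 0.552 and LSH3 and TMF at 0.535.

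Among single combinations of lists, LOS2 alone was the most frequent with 588 of the 2156 regions (27.3%, arms 28.4%). All lists but G1 and LSH1 held 179 regions (8.30%, arms 7.17%), all but G1 138 (6.40%, below the arms with 2637 of 37694 regions), LSH2 with LOS2 116 (5.38%, arms 4.52%) and LSH1 alone 114 (5.29%, arms 4.96%). The combination of LSH1, LSH2 and LSH3 without any other list was rarer than in the arms, with 37 regions (1.72%, 1.25 to 2.36%) against 3.25% (3.07 to 3.43%). In the arms it was most frequent in protein-coding genes (3.75% of the regions there, 1.92% outside), whereas around the centromeres the shares were 1.73% in genes (0.880 to 3.38%) and 1.71% outside (1.19 to 2.45%). Of the 127 possible combinations, all occurred in the arms and 97 around the centromeres. The arms held 37694 regions and the intervals 2156, and fewer regions leave more of the rare combinations unseen, so these 2 counts are not comparable.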

How the data were processed

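The deposited lists give chromosome, start and end of each window and were used as the authors deposited them; coordinates are printed counted from 1. Bowtie2, SAMtools and MACS2 are named without versions in the submitters' processing notes; neither parameters nor a genome build is given in the sources used here. The windows were taken to be in TAIR10 coordinates, and gene bodies came from a RefSeq table of assembly TAIR10.1. Of the 6507 pericentromeric windows, 22.1% were centred in protein-coding genes as deposited and 18.1% after shifts of 1000 bp either way. Arm lengths run to the last gene or window of each chromosome.

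Windows were assigned to intervals and gene classes by their centres, with a base in a protein-coding gene and a pseudogene model counted as protein-coding. Sharing needs 1 bp of overlap. Differences were tested by exact sign-flip permutation over the 7 lists, or over all assignments of 3 lists, with Benjamini-Hochberg adjustment over 7 tests. The test of the excess in genes and the splits of sharing by class of sequence were added after the data were seen.

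Named genes were, by a fixed rule, the 10 genes with most regions common to all lists, 2 per interval with most regions and 1 per list with most regions of that list alone, ties going to shorter genes; the common region nearest each middle, the richest 100 kb bin and the longest window-free stretch were also named. The intervals, lists and tests were chosen with earlier results of these data known. A planned motif search needs genome sequence and was not run. Scripts (Python 3.11.15, numpy 2.4.6, pandas 2.3.3, scipy 1.17.1, matplotlib 3.10.9) were tested on simulated lists with planted densities and overlaps.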

Additional observations from a re-analysis of the deposited data

Results flagged for a closer look

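Outside protein-coding genes, the share of windows found in another list moved in opposite directions between compartments in different lists. It was lower around the centromeres for LSH1, by -6.36 percentage points (interval minus arms), and higher for LSH2, by 4.49, and for LOS2, by 4.78. These 3 lists drew attention because their counting intervals in the 2 compartments did not overlap and their signs differ. Overlapping windows count in both lists, so the 3 movements are not independent. The lists also kept different shares of their arm density in this sequence, 0.714 for LSH1, 0.470 for LSH2 and 0.454 for LOS2. Each protein has 1 list, so the difference between the lists was not tested.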

How the results depend on the processing

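The density, genic share, genic density and intergenic density kept their direction and passed 0.05 under every alternative run, among them intervals of 2 and 5 Mb, each chromosome or list left out, and arms without the 1 Mb next to each interval. For the genic share that direction follows from gene coverage alone. With 1 list left out, the exact permutation p was 0.0312, the smallest that 6 lists allow. The mean log2 density ratio was -1.51 with intervals of 2 Mb and -1.02 with 5 Mb, and -1.29 to -1.24 with 1 list left out. The mean log2 ratio of genic density was the most variable, at -0.56 with 2 Mb, -0.18 with 5 Mb, -0.19 without chromosome 2 from 3.2 to 3.6 Mb and -1.18 with genes of every class, which adds pseudogene models by construction. The sharing difference turned to -0.301 percentage points with intervals of 5 Mb and, added after the data were seen, to -0.097 for windows outside protein-coding genes; without chromosome 3 it was 0.861 (exact permutation p = 0.0469), and with 1 list left out 0.156 to 0.609; the cause was not tested. The mean difference in log2 excess in genes turned to -0.24 with genes of every class and was 0.40 to 0.56 under the other 10 alternatives. With intervals of 2 Mb it was positive in only 6 of 7 lists, the lowest being -0.029 (exact sign-flip permutation p = 0.0312). The LSH comparison had exact permutation p = 0.0571 to 0.143 under the 8 alternatives that keep all 7 lists; with 1 list left out it cannot reach 0.05. Region counts of the 26 named genes were the same when any overlap with the gene was counted. A stricter peak threshold was not run, as the lists hold no score. Intervals and arms are paired within each list in the sign-flip tests, and no replicate block could be fitted, since each protein has 1 list. Read depth is unknown, so list length and depth cannot be told apart.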
